A study of Mus musculus with 12 samples.

Results

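The subject here is Sema5a, the long non-coding gene Snhg18 beside it, and 7 relatives of the semaphorin and plexin families: Sema5b, Sema3a, Sema3e, Sema4a, Sema6d, Plxna1 and Plxnb3. All probe sets (the groups of probes that read a transcript) annotated with only 1 of these symbols were taken, which gave 22 probe sets for 9 genes, out of 28898 single-symbol probe sets for 17097 genes. Sema5a and Snhg18 had been picked because they were high in hIAPP arrays. For that reason their values in comparisons with hIAPP arrays are given as a description with no test, and tests are given for the relatives and for comparisons that leave the hIAPP arrays out.

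RNA of mouse pancreatic islets, the hormone-secreting cell clusters of the pancreas, was read on Affymetrix arrays at 12 weeks of age, with mice kept on standard chow. The 4 groups of 3 arrays were wild type (WT), mice that carry human islet amyloid polypeptide as a transgene (hIAPP), mice without the aspartyl protease BACE2 (BACE2-KO), and mice with the transgene that also lacked BACE2 (hIAPP/BACE2-KO). Every label, including those of the WT and hIAPP mice, names the strain B6;129P2-Bace2tm1Bdes/J, and the promoter of the transgene is not given in the sources used here. Whether an array holds islets of 1 mouse or of several is not stated either, so each p-value measures the spread between these arrays.

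Semaphorins are membrane-bound or secreted guidance proteins, best known for steering growing axons, and plexins are their main receptors, which signal to the cytoskeleton through small GTPases. Class 5 semaphorins, Sema5a and Sema5b, span the membrane and carry thrombospondin repeats beside the semaphorin domain. Class 3 semaphorins such as Sema3a and Sema3e are secreted. In islets these proteins are known from vessels, nerves and endocrine cells.

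Snhg18, a small nucleolar RNA host gene, lies head to head with Sema5a on chromosome 15 in the RefSeq annotation of GRCm38.p6. Their annotated starts are 151 bases apart, on opposite strands. RefSeq windows from 250 bases before to 50 after a start were at hand for 8 of the 9 genes, and Plxna1 had none. The windows of Sema5a and Snhg18 share 250 bases. The first is shown because its capitals are the 150 bases that separate both starts, and the second, read on the Snhg18 strand, has in capitals each match to GGGCGG on either strand, the core of the GC box that Sp factors bind.
Sema5a, chr15:32244563-32244862, plus strand, GRCm38.p6: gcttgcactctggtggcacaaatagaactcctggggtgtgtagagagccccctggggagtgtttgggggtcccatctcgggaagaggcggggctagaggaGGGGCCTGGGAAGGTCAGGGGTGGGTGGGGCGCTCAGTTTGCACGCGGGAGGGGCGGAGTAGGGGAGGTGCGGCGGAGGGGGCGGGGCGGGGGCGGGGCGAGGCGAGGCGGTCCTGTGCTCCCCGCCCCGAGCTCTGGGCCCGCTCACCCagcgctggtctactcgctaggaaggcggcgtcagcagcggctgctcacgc
Snhg18, chr15:32244613-32244912, minus strand, GRCm38.p6: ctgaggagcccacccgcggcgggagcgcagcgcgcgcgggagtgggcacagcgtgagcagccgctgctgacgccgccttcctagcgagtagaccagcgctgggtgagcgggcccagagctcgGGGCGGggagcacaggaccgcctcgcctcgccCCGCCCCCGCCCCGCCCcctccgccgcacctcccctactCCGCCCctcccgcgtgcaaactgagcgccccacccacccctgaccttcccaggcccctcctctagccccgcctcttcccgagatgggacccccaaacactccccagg
Each window held 5 matches to GGGCGG, overlapping matches counted apart, and all 5 lie between the starts. At least 1 match was found in 35.7% of the 32851 RefSeq windows of the same length, and at least 5 in 2.71%. G and C made up 71.3% of the Sema5a window and 75.3% of the Snhg18 window, against a median of 52.7%. Neither window held TATAAA (found in 13.6% of all windows) or CCAAT (in 37.4%) on either strand. Sema5b, the closest relative of Sema5a, had a window with 73% G and C and 0 matches to GGGCGG.

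The deposited values are log2 levels, so a difference of 1 is a factor of 2 on that scale. Each gene was represented by its probe set with the highest mean, and genes under a mean level of 3.43, the 25th percentile, were left out, which left 12825. Of the 22 probe sets, 17 had a mean at or above that level, and all 9 genes were tested. Sema5a would have passed without the hIAPP arrays too, with a mean of 3.72 over the other 9. The islet identity of the arrays was checked on 8 endocrine markers (Ins2, Gcg, Sst, Ppy, Pdx1, Nkx6-1, Slc2a2 and Chga), whose mean level lay between 11.70 and 12.21 in every array. Mafa, the ninth on that list, had no single-symbol probe set. The list was lower in hIAPP than in WT for 7 of 8 genes, where 41.6% of all genes were higher. Of the 8, 2 had an unadjusted p under 0.05, beside 4.52% of all genes, and 0 were called by limma. Slc2a2, the glucose transporter GLUT2 gene, had the largest difference of the 8 and was picked out after its values were seen. It read 10.87 ± 0.60 (SD, n = 3) in hIAPP and 11.55 ± 0.11 in WT. The mean of the 8 markers was 11.70, 12.05 and 12.15 in hIAPP replicates 1 to 3, against 12.07 to 12.21 in WT. Islet preparations are mixed tissue, so fewer cells of a type and less RNA per cell cannot be told apart.

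Sema5a, a transmembrane guidance ligand, stood far above its level of every other array in the 3 hIAPP arrays. On its main probe set (1437422_PM_at) the level was 8.61, 8.49 and 7.47 in hIAPP replicates 1 to 3. WT arrays read 3.50, 3.62 and 3.43. In BACE2-KO the 3 arrays read 3.62, 3.69 and 4.79. In hIAPP/BACE2-KO they read 3.70, 3.55 and 3.55. The hIAPP arrays were the highest 3 of 12 and did not overlap with any group, and the lowest of them lay 2.68 above the highest of the other 9.

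Group means of Sema5a were 8.19 ± 0.63 (SD, n = 3) in hIAPP, 4.03 ± 0.66 in BACE2-KO, 3.60 ± 0.09 in hIAPP/BACE2-KO and 3.52 ± 0.10 in WT. The last 3 groups overlapped, and their order is not resolved against the spread. Between hIAPP and WT the difference was 4.67 (SE 0.32), a factor of 25.5 on the deposited scale. Between hIAPP/BACE2-KO and hIAPP it was -4.59 (SE 0.32). Both use the same 3 hIAPP arrays and are not independent. The WT and hIAPP/BACE2-KO levels lie close to 3.43, at the bottom of the scale, so either difference may understate the change in transcript. In islets that carried the transgene but lacked BACE2, Sema5a overlapped with WT, with a difference from WT of 0.08 (SE 0.32, limma adjusted p = 0.967).

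**Figure D1:**
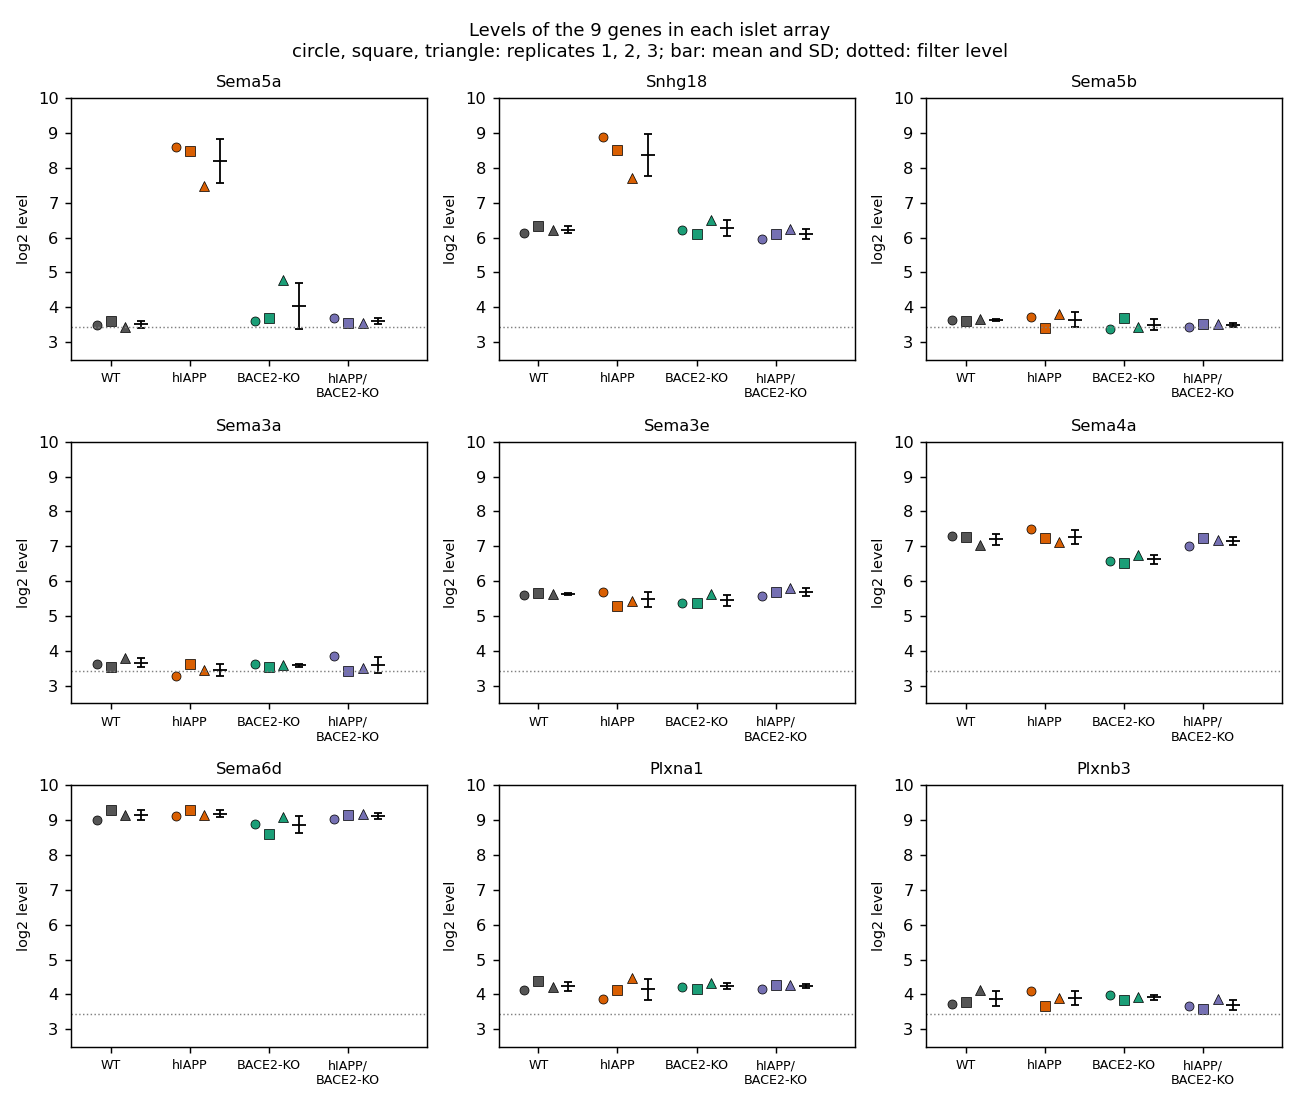
Log2 level of the main probe set of each of the 9 genes (vertical axis) in every array, by genotype (horizontal axis). Circles, squares and triangles are replicates 1, 2 and 3, black bars are the mean and SD, and the dotted line is the filter level of 3.43; in the Sema5a and Snhg18 panels the 3 hIAPP arrays lie above the other 9, and in the Sema4a panel the 3 BACE2-KO arrays lie lowest.

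Snhg18 stood high in the same 3 arrays. Its single probe set read 8.88, 8.51 and 7.72 in hIAPP replicates 1 to 3. WT arrays read 6.12, 6.33 and 6.23. In BACE2-KO the levels were 6.22, 6.09 and 6.52, and in hIAPP/BACE2-KO 5.97, 6.11 and 6.25. Again the hIAPP arrays did not overlap with any other group, and the lowest of them lay 1.20 above the highest of the other 9. Means were 8.37 ± 0.59 (SD, n = 3) in hIAPP, 6.28 ± 0.22 in BACE2-KO, 6.23 ± 0.11 in WT and 6.11 ± 0.14 in hIAPP/BACE2-KO. The difference was 2.14 (SE 0.23) between hIAPP and WT and -2.26 (SE 0.23) between hIAPP/BACE2-KO and hIAPP. Unlike Sema5a, Snhg18 lay well above 3.43 in all 12 arrays, so these sizes do not rest on a level at the lower end of the scale.

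The threshold for a call was an adjusted p under 0.05 over the 12825 genes. Sema5a and Snhg18 were past it in hIAPP against WT, where 0.0156% of all genes were called, and in hIAPP/BACE2-KO against hIAPP, where 0.101% were. They were chosen on these arrays, so nothing is read from those counts. In the interaction, which asks whether the transgene's difference depends on BACE2, Sema5a stood at -5.11 (SE 0.45) and Snhg18 at -2.31 (SE 0.33), with 0.0078% of genes called. That value too is built on the hIAPP arrays.

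Comparisons without hIAPP arrays were not what the choice was made on, although WT arrays were its reference and all 12 arrays share the estimate of spread. Between BACE2-KO and WT, Sema5a differed by 0.52 (SE 0.32, limma adjusted p = 0.916) and Snhg18 by 0.05 (SE 0.23, adjusted p = 0.997). Between hIAPP/BACE2-KO and BACE2-KO, Sema5a differed by -0.43 (SE 0.32, limma adjusted p = 0.962) and Snhg18 by -0.17 (SE 0.23, adjusted p = 0.972). Neither gene was called. The Sema5a values rest on BACE2-KO replicate 3, the array at 4.79, and without it they were 0.14 and -0.05. Snhg18 also had its highest level outside hIAPP in that array, and without it the differences were -0.07 and -0.04.

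The 4 probe sets named Sema5a did not behave alike. On 1434776_PM_at the hIAPP arrays read 8.29, 8.27 and 7.12, and the WT arrays 3.26, 3.47 and 3.06, a difference of 4.63 (SE 0.29 in the fit of single probe sets). On 1422167_PM_at they read 4.27, 3.79 and 3.71 against 3.06, 2.88 and 3.0, a difference of 0.94 (SE 0.14). On 1459109_PM_at they read 3.0, 2.76 and 3.23 against 2.80, 3.07 and 3.20, a difference of -0.03 (SE 0.19). The first pair of sets therefore showed the hIAPP level at full size, the third a small shift low on the scale, and the fourth a difference below its SE. Where each set lies along the transcript is not known here, and the mean of all 4 sets differed by 2.56 between hIAPP and WT.

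Counting Snhg18, 4 of these 5 probe sets had all 3 hIAPP arrays above the other 9, and in all 4 the order was replicate 1, then 2, then 3. BACE2-KO replicate 3 was the highest of the 9 arrays outside hIAPP on 3 of the 5 sets, namely 1437422_PM_at, 1434776_PM_at (3.73) and the Snhg18 set (6.52). These patterns were noticed after the values were seen, and they hold for probe sets of neighbouring genes read on the same arrays.

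**Figure D2:**
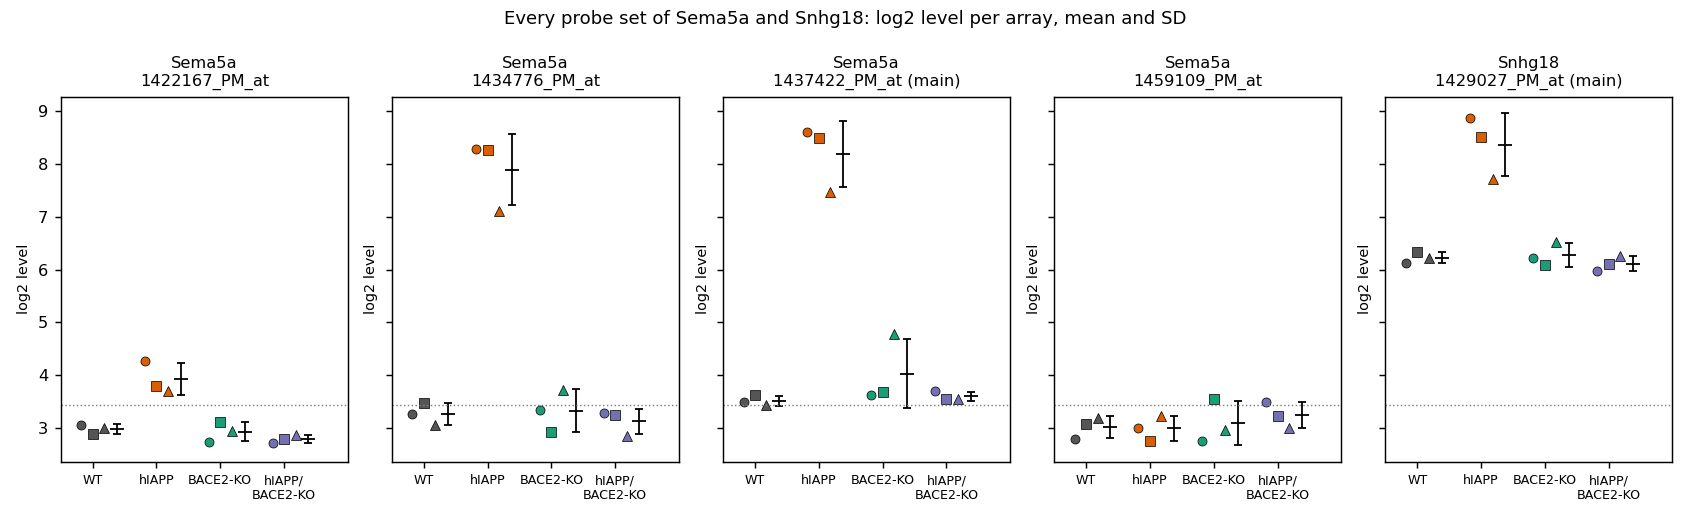
Log2 level of each of the 4 Sema5a probe sets and of the Snhg18 probe set (panels) in every array, by genotype, with replicates 1, 2 and 3 as circles, squares and triangles and black bars for the mean and SD. The hIAPP arrays lie above the rest in 4 of the 5 panels, and BACE2-KO replicate 3, at 4.79, is the highest of the other arrays on the main Sema5a set.

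Among the 12825 genes tested, Snhg18 had the pattern most like that of Sema5a. Pearson's r of their levels over the 12 arrays was 0.984, and the next genes were Prl8a2 (0.876), Dusp13 (0.864), Enkur (0.860) and Bco1 (0.850). This r is set mostly by the gap between hIAPP and the other groups, for which both genes were chosen. It and the first place of Snhg18 are therefore a description and no test. Prl8a2, near the filter level, differed little all the same, from 3.41 ± 0.05 (SD, n = 3) in WT to 3.56 ± 0.04 in hIAPP. Bco1, the carotenoid-cleaving oxygenase, went from 6.58 ± 0.15 to 6.97 ± 0.10. The lowest r were those of Glis2 (-0.921), Mxd1 (-0.919), Ttll1 (-0.906), Tmem175 (-0.900) and Lmo7 (-0.899). Tmem175, a lysosomal potassium channel, went from 6.06 ± 0.07 in WT to 5.56 ± 0.13 in hIAPP. Of the relatives, Sema4a was closest to Sema5a with r = 0.404, in place 1081 of 12824.

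**Figure D3:**
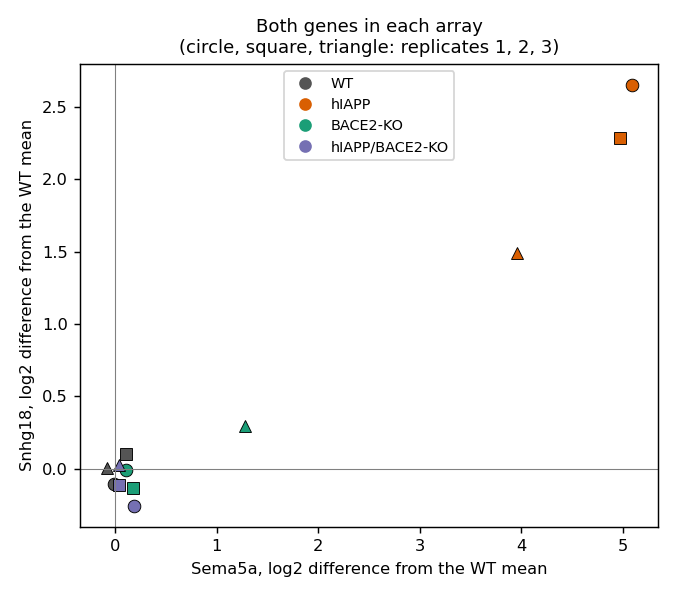
Difference of each array from the WT mean for Sema5a (horizontal axis, log2) and Snhg18 (vertical axis, log2), with colours for genotypes and circles, squares and triangles for replicates 1, 2 and 3. The 3 hIAPP arrays lie at the upper right in the same order for both genes, and BACE2-KO replicate 3, at 1.27 and 0.29, is the next array.

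RefSeq's gene order was used to ask whether the genes around the pair differed as well. Of the 10 measured genes on each side of Sema5a, 19 remain beside Snhg18, and 17 of them were tested. None was called by limma in any of the 6 comparisons. Against WT, hIAPP arrays had 3 of these 17 higher, beside 41.6% of all genes, and a median difference of -0.10, beside a median of -0.03 over all genes. On the Snhg18 side the next measured genes were Tas2r119, a bitter taste receptor gene under the filter level, and Atpsckmt, which differed by -0.03 (limma adjusted p = 0.989). Across Sema5a the nearest were Sdc2, which encodes the heparan sulfate proteoglycan syndecan 2 (-0.29, limma adjusted p = 0.950), the peptidase gene Cpq (-0.10, adjusted p = 0.950) and 1700084J12Rik, under the filter level.

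Matn2, the gene of the matrix protein matrilin 2, was the only one of the 17 with a difference past 1 and was picked out after its values were seen. It read 6.0, 6.09 and 6.51 in WT and 4.75, 5.28 and 5.52 in hIAPP. BACE2-KO arrays read 4.05, 4.86 and 5.49, and hIAPP/BACE2-KO arrays 4.52, 4.37 and 5.58. All 3 other genotypes thus lay below WT with no overlap, by -1.02, -1.40 and -1.38 (limma adjusted p = 0.950, 0.344 and 0.285), a pattern that Sema5a and Snhg18 do not share. Laptm4b, the measured gene next to Matn2 and also picked out after its values were seen, lay below WT with no overlap in all 3 genotypes too. Its differences were smaller, at -0.13, -0.09 and -0.22 (limma adjusted p = 0.950, 0.937 and 0.289). In those comparisons the groups did not overlap for 4, 2 and 3 of the 17 genes, beside 9.16%, 12.9% and 14.9% of all genes. Over the other 523 tested genes of chromosome 15, 0 were called in hIAPP against WT by limma, 30 had an unadjusted p under 0.05 (5.74%, against 4.52% of all genes), and the differences ran from -1.02 to 0.85.

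**Figure D4:**
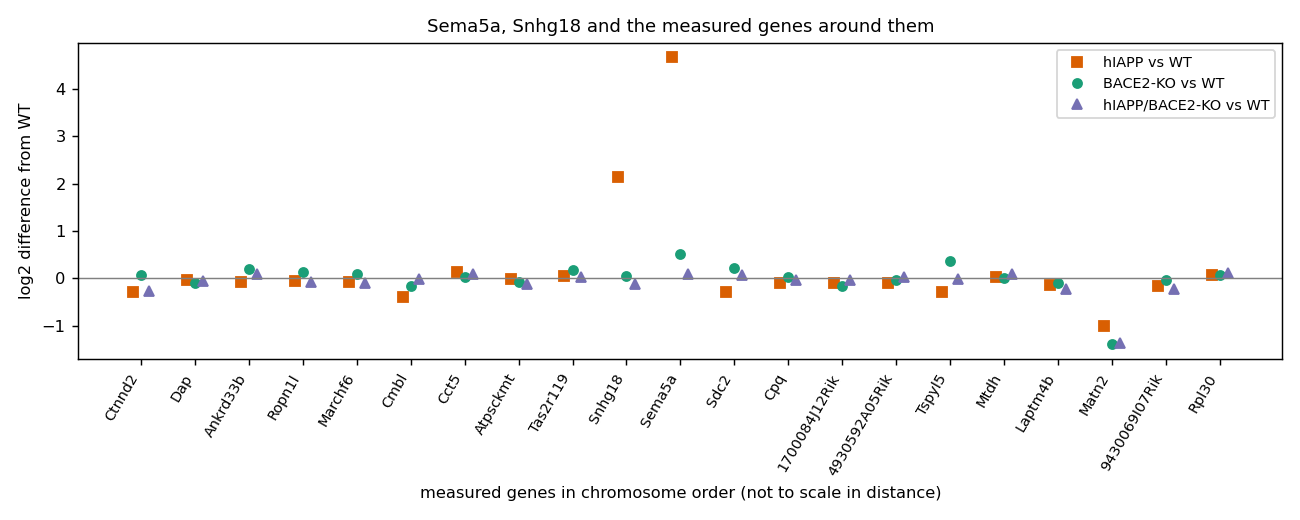
Log2 difference from WT (vertical axis) of Sema5a, Snhg18 and the 19 other measured genes nearest to Sema5a in chromosome order (horizontal axis), for hIAPP (squares), BACE2-KO (circles) and hIAPP/BACE2-KO (triangles). Only the hIAPP points of Sema5a (4.67) and Snhg18 (2.14) rise above 1, and Matn2 lies below -1 in all 3 genotypes.

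Over the whole genome, 589 pairs of tested genes have annotated starts on opposite strands that point away from each other within 1000 bases. In hIAPP against WT, Snhg18 with Sema5a was the 1 pair with a called gene, and both of its genes were called. They were also the 1 pair with a gene past a difference of 1. This restates the choice of the pair and is no test.

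Other cell types were read from marker lists. Of the tested markers, 4 of 9 macrophage, 3 of 6 lymphocyte and 2 of 7 stellate and fibroblast genes had an unadjusted p under 0.05 in hIAPP against WT. In the endothelial, Schwann and glial, neuronal, acinar and duct lists 0 had one. Over all genes that share was 4.52%, and 41.6% were higher in hIAPP. Limma called 0 of these markers. Macrophage markers lay higher in hIAPP than in WT for 8 of 9 genes, with list means of 6.99, 6.73 and 6.96 in hIAPP replicates 1 to 3 against 6.18 to 6.35. In BACE2-KO they ran from 6.08 to 6.41. In hIAPP/BACE2-KO replicate 2 the macrophage mean was 7.09, above every hIAPP array, while Sema5a stood at 3.55 and Snhg18 at 6.11 in that array. Lymphocyte markers had means of 4.14, 4.02 and 4.88 in hIAPP replicates 1 to 3 against 3.80 to 3.92 in WT, with 7 of 8 genes higher, and the array with the most, replicate 3, had the least Sema5a of the hIAPP arrays. Stellate and fibroblast markers were higher for 9 of 9 genes, with means of 5.67, 5.26 and 5.22 in hIAPP replicates 1 to 3 against 4.75 to 5.44 in WT, the same order of the hIAPP arrays as for Sema5a. That list, too, was highest in hIAPP/BACE2-KO replicate 2 (6.34). 

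Endothelial markers ranged from 6.76 to 7.12 in hIAPP and from 6.93 to 7.11 in WT, and Schwann and glial markers read 4.59, 4.44 and 4.36 in hIAPP replicates 1 to 3, also in the order of Sema5a, and from 4.33 to 4.48 in WT. Neuronal markers ranged from 5.76 to 5.83 in hIAPP and from 5.66 to 5.76 in WT, acinar markers from 9.73 to 10.27 and from 9.09 to 10.88, and duct markers from 6.61 to 7.15 and from 6.52 to 7.08. S100b, Cd79b, Cd8a, Col1a2, Pdgfra and Cftr were under the filter level, and 8 further markers had no single-symbol probe set. The part of these lists, and of the endocrine list, which was lowest in the hIAPP array with the most Sema5a, in the Sema5a and Snhg18 levels was not tested.

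The 7 relatives did not share the hIAPP pattern. In hIAPP against WT 0 of 7 were called by limma and 0 had an unadjusted p under 0.05, with differences from -0.22 to 0.08. None was called in the other 5 comparisons either, in which 2, 0, 1, 0 and 1 had an unadjusted p under 0.05 for BACE2-KO against WT, hIAPP/BACE2-KO against hIAPP, against BACE2-KO and against WT, and the interaction. Called genes made up 0.125%, 0.101%, 0%, 0.133% and 0.0078% of all genes there. An unadjusted p under 0.05 was found for 4.52% of all genes in hIAPP against WT and for 6.28%, 8.37%, 4.44%, 8.43% and 2.4% in those 5. The groups of a relative did not overlap for 0, 1, 0, 1 and 1 of 7 in the 5 comparisons of 2 groups, beside 9.16%, 12.9%, 11.1%, 9.68% and 14.9% of all genes.

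Read one by one, the 17 probe sets of the relatives gave 0 calls by limma in the 6 comparisons too, where 0.0104%, 0.0623%, 0.104%, 0%, 0.1% and 0.0104% of all probe sets were called. Groups did not overlap for 1, 2, 3, 3 and 5 of the 17, beside 9.45%, 11.8%, 11.1%, 9.36% and 12.9% of all probe sets.

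Sema5b, the other class 5 semaphorin, read 3.65 ± 0.21 (SD, n = 3) in hIAPP and 3.63 ± 0.04 in WT. Islets without BACE2 read 3.50 ± 0.16, or 3.49 ± 0.05 with the transgene. These levels lie near the filter level, and hIAPP and WT differed by 0.02 (SE 0.12, limma adjusted p = 0.992). The hIAPP/BACE2-KO arrays lay below the WT arrays with no overlap (difference -0.14, limma adjusted p = 0.796), where 14.9% of all genes did not overlap. Its second probe set was higher in hIAPP (3.46, 3.70 and 3.86) than in WT (3.29, 3.31 and 3.23) with no overlap, by 0.40 (limma adjusted p = 0.917 over all probe sets), where 9.45% of all probe sets had groups that did not overlap.

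Of the secreted class 3 ligands, Sema3a, which acts through neuropilin 1 and A-type plexins, read 3.66 ± 0.13 (SD, n = 3) in WT and 3.44 ± 0.17 in hIAPP, also near the filter level. That was a difference of -0.22 (SE 0.13, limma adjusted p = 0.950). Sema3e, a ligand of plexin D1, read 5.48 ± 0.21 in hIAPP and 5.63 ± 0.03 in WT, and without BACE2 5.45 ± 0.16, or 5.69 ± 0.12 with the transgene as well. Its difference between hIAPP and WT was -0.16 (SE 0.14, limma adjusted p = 0.950), within the spread of the hIAPP arrays.

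Sema4a, a membrane semaphorin also known from immune cells and the retina, was the relative with the largest difference on the main probe sets. It read 7.29, 7.27 and 7.03 in WT and 7.50, 7.23 and 7.11 in hIAPP. BACE2-KO arrays read 6.59, 6.52 and 6.76, and hIAPP/BACE2-KO arrays 7.02, 7.25 and 7.18. The 3 BACE2-KO arrays lay below the other 9, and the remaining groups overlapped. BACE2-KO differed from WT by -0.57 (SE 0.13, unadjusted p = 0.000745, limma adjusted p = 0.221), and hIAPP/BACE2-KO from BACE2-KO by 0.53 (SE 0.13, unadjusted p = 0.00143, adjusted p = 0.962). Both use the BACE2-KO arrays, and neither passed. Sema4a was the 1 relative of 7 whose groups did not overlap in BACE2-KO against WT, where 12.9% of all genes did not. With array weights, which give less weight to arrays that vary more, the BACE2-KO difference was -0.59 and passed (limma adjusted p = 0.0489). Between hIAPP/BACE2-KO and hIAPP, BACE2 loss went with a difference of -0.13 (SE 0.13), and the interaction was 0.44 (SE 0.18, unadjusted p = 0.0315, limma adjusted p = 1).

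Sema6d, a transmembrane ligand of plexin A1, read 9.12, 9.30 and 9.14 in hIAPP and 9.01, 9.30 and 9.16 in WT. BACE2-KO arrays read 8.90, 8.61 and 9.10, and hIAPP/BACE2-KO arrays 9.03, 9.14 and 9.18. The groups overlapped, and BACE2-KO differed from WT by -0.29 (SE 0.12, limma adjusted p = 0.741). Without single arrays this difference ran from -0.40 (without BACE2-KO replicate 3) to -0.16, and with the mean of its probe sets it was -0.02. On its other probe sets, 1446536_PM_at differed from WT by -0.09 in BACE2-KO, the sign of the main set, and like the main set was lowest in BACE2-KO replicate 2 (3.96). On 1448060_PM_at the hIAPP/BACE2-KO arrays ran from 4.82 to 5.11. They lay above hIAPP (4.56 to 4.64), BACE2-KO (4.40 to 4.64) and WT (4.47 to 4.62) with no overlap, unlike on the main set. In those comparisons 11.1%, 9.36% and 12.9% of all probe sets did not overlap, and this set was not called by limma. On 1459318_PM_at the levels were 4.03, 3.98 and 3.51 in hIAPP and 5.04, 4.99 and 4.37 in hIAPP/BACE2-KO. That was a difference of 0.96 with no overlap (SE 0.20, limma adjusted p = 0.109 over all probe sets), and 11.1% of all probe sets did not overlap in that comparison. BACE2-KO was above WT on it too, with 4.44, 4.51 and 4.61 against 3.96, 4.20 and 4.30 (difference 0.37, adjusted p = 0.943). What part of Sema6d this set reads is not known here.

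The receptor genes varied little on their main probe sets. Plxna1, the plexin A1 gene, had group means from 4.15 to 4.24, with a difference of -0.09 (SE 0.15, limma adjusted p = 0.965) between hIAPP and WT. Plxnb3, which encodes a plexin described as a Sema5a receptor, had means from 3.70 to 3.91, with a difference of 0.02 (SE 0.14, limma adjusted p = 0.992). Arrays of different groups overlapped for both genes in each of the 5 comparisons of 2 groups on the main probe sets. On the second Plxna1 set, under the filter level, hIAPP/BACE2-KO arrays (2.95 to 3.12) lay below hIAPP (3.18 to 3.72) and BACE2-KO (3.23 to 3.30) with no overlap. In those comparisons 11.1% and 9.36% of all probe sets did not overlap, and this set was not called by limma. With the mean of the Plxna1 sets, hIAPP/BACE2-KO differed from hIAPP by -0.115, against 0.09 on the main set.

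The rest of the pathway was read from 5 lists, chosen with earlier results of these data known. Of 20 semaphorins, 18 were tested (Sema3d and Sema6b lay under the filter level). Apart from Sema5a, 0 of 17 were called by limma in hIAPP against WT and 0 had an unadjusted p under 0.05. Their differences ran from -0.22 to 0.25 with a median of -0.04, beside -0.03 over all genes. Sema6c was the highest of them, at 4.32, 4.43 and 4.41 in hIAPP and 4.17, 4.06 and 4.17 in WT, a difference of 0.25 (SE 0.12, limma adjusted p = 0.950). In hIAPP/BACE2-KO it read 3.92, 4.25 and 3.89, a difference from hIAPP of -0.37 (SE 0.12, limma adjusted p = 0.409).

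Among the same 17 semaphorins, limma called 0 in BACE2-KO against WT (2 with an unadjusted p under 0.05, median -0.11, beside 0.01 over all genes) and 0 in hIAPP/BACE2-KO against hIAPP (2, median 0, beside 0.03). It also called 0 in hIAPP/BACE2-KO against BACE2-KO (3, median 0.07, beside -0.01) and 0 in hIAPP/BACE2-KO against WT (2, median -0.04, beside 0). In that order, 6.28%, 8.37%, 4.44% and 8.43% of all genes had an unadjusted p under 0.05, and 0.125%, 0.101%, 0% and 0.133% were called. The interaction called 0 of the 17 as well (3 with an unadjusted p under 0.05, where 2.4% of all genes had one, and a median of 0.22, beside 0.02 over all genes). Sema3g, an endothelial class 3 semaphorin, differed by 0.40 (SE 0.14, limma adjusted p = 0.429) between hIAPP/BACE2-KO and hIAPP. Sema7a, the GPI-anchored semaphorin, differed by 0.42 (SE 0.17, limma adjusted p = 0.962) between hIAPP/BACE2-KO and BACE2-KO. Sema4b differed by -0.33 (SE 0.12, limma adjusted p = 0.445) between hIAPP/BACE2-KO and WT.

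Of 11 plexins and neuropilins, 10 were tested, all but Plxnc1. In hIAPP against WT 2 of 10 were higher, beside 41.6% of all genes, the median was -0.05 and the differences ran from -0.24 to 0.02. None was called by limma in any of the 6 comparisons, and 1 had an unadjusted p under 0.05, Plxna3 in hIAPP/BACE2-KO against hIAPP. Plxna3, a receptor for class 3 semaphorin complexes, read 4.97, 5.19 and 5.29 in hIAPP/BACE2-KO and 4.41, 4.35 and 4.96 in hIAPP, a difference of 0.58 (SE 0.21, limma adjusted p = 0.471).

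**Figure D5:**
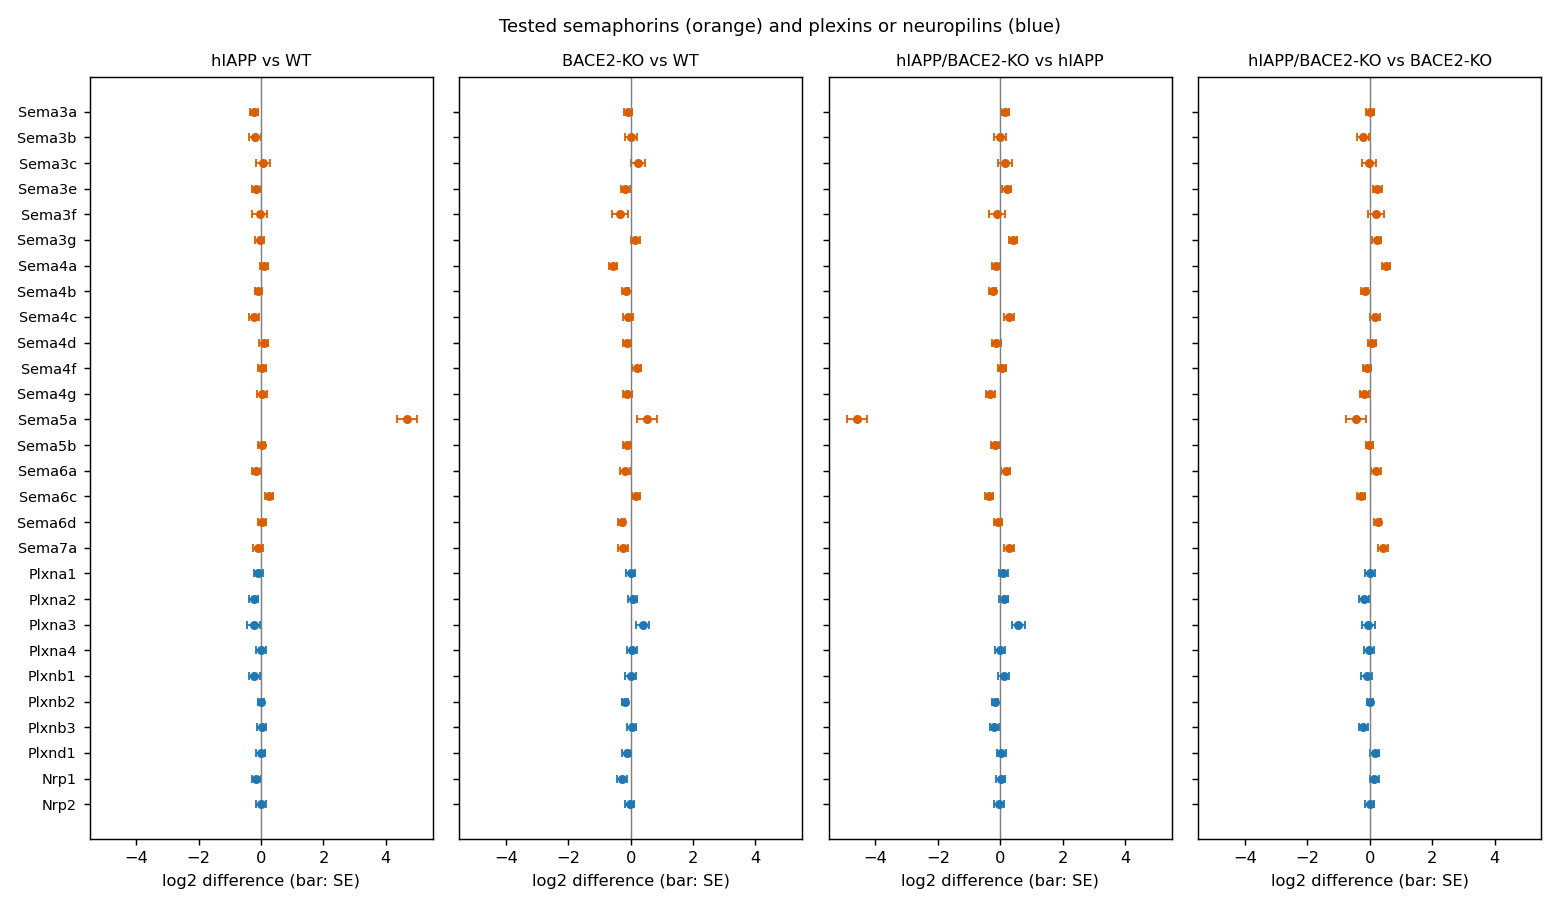
Log2 difference with its SE (horizontal axis) of each tested semaphorin (orange) and plexin or neuropilin (blue) in 4 comparisons (panels). Sema5a lies at 4.67 in hIAPP against WT and at -4.59 in hIAPP/BACE2-KO against hIAPP, while every other gene shown stays within -0.57 and 0.58.

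Co-receptors and signalling partners of semaphorins, such as Met, Farp2, Crmp1 and the Mical oxidases, made up the third list, with 27 of 31 genes tested. In hIAPP against WT limma called 0 of 27, and 1 had an unadjusted p under 0.05, beside 4.52% of all genes. The differences ran from -0.30 to 0.30 (median -0.06). The member with the smallest p there was Mical2, an actin-oxidising enzyme (-0.26, SE 0.11, limma adjusted p = 0.950). Mical1 differed by 0.45 (SE 0.12, limma adjusted p = 0.295) between hIAPP/BACE2-KO and hIAPP, at levels close to the filter level. Timd2, a receptor of Sema4a in the immune system, differed by -0.36 (SE 0.15, limma adjusted p = 0.755) between BACE2-KO and WT.

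Netrins, Slits, ephrins and their receptors served as other guidance genes, with 25 of 39 tested. None was called by limma in the 6 comparisons. In hIAPP against WT, 3 of 25 had an unadjusted p under 0.05, beside 4.52% of all genes, and the median was -0.03. Ntn4, a netrin of basement membranes, read 4.08, 3.71 and 3.84 in hIAPP and 4.48, 4.26 and 4.55 in WT, a difference of -0.55 (SE 0.14, limma adjusted p = 0.950). The netrin receptor gene Unc5c differed by -0.71 (SE 0.27, limma adjusted p = 0.950), with hIAPP arrays at 5.93, 6.54 and 6.71 and WT arrays at 7.53, 7.11 and 6.66. The ephrin receptor gene Epha7 differed by -0.55 (SE 0.23, limma adjusted p = 0.950). All 3 differences had the sign opposite to that of Sema5a.

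Other small nucleolar RNA host genes were compared with Snhg18, which hosts Snord123. Of 20 on the list, 10 had a single-symbol probe set, and all 10 were tested. Apart from Snhg18, 0 of 9 were called by limma in hIAPP against WT and 0 had an unadjusted p under 0.05, with differences from -0.27 to 0.14 and a median of 0.04. Snhg11 was the one that stood apart elsewhere, with 7.42, 6.58 and 6.67 in BACE2-KO against 5.90, 6.02 and 6.05 in WT. That was a difference of 0.90 with no overlap (SE 0.19, unadjusted p = 0.000419, limma adjusted p = 0.179), where 12.9% of all genes did not overlap. In islets with the transgene it read 6.57, 6.68 and 6.51 without BACE2 and 5.58, 5.85 and 5.72 with it, a difference of 0.87 (SE 0.19, unadjusted p = 0.000555, limma adjusted p = 0.171). These 2 comparisons share no array, though the fit shares the spread of each gene between them, and neither difference passed.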

How the data were processed

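Total RNA of islets was turned into biotinylated cRNA and hybridised to Affymetrix arrays, per the labels' protocols. The deposited values are log2 levels for 45141 probe sets in 12 arrays, made by the authors with RMA, which corrects background, normalizes arrays to each other and sums up the probes of a set, and affy, per the submitters' processing notes. Their versions, like the genome build, were not given in the sources used here, and array data hold no read depth, so the number of arrays limits the precision. Array medians ran from 4.22 to 4.35, and no 2 arrays shared more than 2.22% of their values. The platform annotation gave 1 symbol to 28898 probe sets, several to 551 (not named) and none to 15692.

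Each gene was represented by its probe set with the highest mean, and genes under the 25th percentile of these means were left out. All 12 arrays entered 1 model with a mean for each group, fitted with limma 3.58.1 in R 4.3.3 (lmFit, eBayes with a variance trend), two-sided, with Benjamini-Hochberg adjustment over 12825 genes and a call under 0.05. A second fit took every single-symbol probe set on its own. The steps were checked on simulated arrays. Alternatives were no filter, the mean of a gene's probe sets, single probe sets, quantile normalization, median centring, other variance models, array weights, a block for the replicate number, fits of the compared groups alone and each array left out. Genes named were the 9 members, up to 3 genes per list and comparison by smallest p, the 3 measured genes nearest to Sema5a on each side, and the 5 genes with the highest and the 5 with the lowest Pearson r with Sema5a; exceptions are marked. Members and lists were chosen with earlier results of these data known. Gene order and promoter windows came from RefSeq tables of GRCm38.p6, and plots were drawn with matplotlib 3.10.9.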

Additional observations from a re-analysis of the deposited data

Results flagged for a closer look

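The difference in Sema5a between islets with and without the transgene was not the same with and without BACE2. Genotype and genetic background cannot be told apart in this design. With BACE2 it was 4.67 and without BACE2 -0.43, and the interaction, the second less the first, was -5.11 (SE 0.45). Sema5a was chosen on the hIAPP arrays that enter this value, so it is given as a description. The value of -0.43 rests on BACE2-KO replicate 3, and without that array it was -0.05.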

How the results depend on the processing

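Sema5a and Snhg18 were chosen on the hIAPP arrays, so their values and calls in comparisons with those arrays describe the settings and are no evidence of stability. For Sema5a, leaving out 1 array at a time gave 4.46 to 5.03 in hIAPP against WT and -4.95 to -4.38 in hIAPP/BACE2-KO against hIAPP, and the mean of its 4 probe sets gave 2.56 and -2.56. Snhg18 ran from 1.89 to 2.47 and from -2.59 to -2.01 without single arrays. In a fit of only the groups compared Snhg18 was no longer past the threshold (2.14 and -2.26), so 1 member was called in place of 2 in both comparisons, where a smaller number of arrays sets the spread. The same happened in hIAPP against WT without hIAPP replicate 2 (2.07), so the members called ran from 1 to 2 over the fits without 1 array. In BACE2-KO against WT 1 member, Sema4a, was called with array weights in place of 0. In the interaction 2 members, Sema5a and Snhg18, were called in place of 1 with single probe sets and with robust eBayes, and 1 to 2 without single arrays (2 without hIAPP replicate 3); the cause was not tested. In the other comparisons, hIAPP/BACE2-KO against BACE2-KO and against WT, 0 members were called under every alternative. With the replicate block the Sema5a differences stayed at 4.67 and -4.59 and no call of a member changed. Deviations of same-numbered arrays from their group means correlated between -0.13 and 0.37 (median 0.14) and those of different numbers between -0.44 and 0.30 (median -0.07). As a hint from the data, 8 of 12 arrays correlated best with an array of their own number, but not every pair was above 0.1 and the labels name no shared litter or batch, so the numbers were not treated as pairs. Sema5a and Snhg18 in hIAPP against WT and in hIAPP/BACE2-KO against hIAPP were left out of a last count. Of the remaining member differences, 1070 values kept their call or moved by less than the spread between arrays, 11 moved by more and 4 passed the threshold, which they had missed. Those 4 are the calls given above, of Sema4a with array weights and of Snhg18 in the interaction. The count still holds the interaction values of Sema5a and Snhg18. These are built on the hIAPP arrays too, so that part of the count is a description and no evidence of stability. Low signal limits Sema5a outside hIAPP, Sema5b and Sema3a, whose levels lie near the filter level.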
